A study of Mus musculus with 12 samples.

Results

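The 10 genes described here are Trem2, Gpnmb, Spp1, Cd9, Lyz2, Itgax, Ly6c2, Ms4a7, Lgals3 and Fabp5, a set chosen by name as genes of recruited monocytes and of lipid-associated macrophages. They are 10 of 46078 genes in a count table of mouse liver, and all 10 passed the filter on low counts that left 13054 genes for testing. Every symbol matched 1 Ensembl gene.

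The livers came from C57BL/6 mice (C57BL/6J in the study's methods) aged 21 weeks with diet-induced obesity, which all 3 groups shared. VSG mice underwent vertical sleeve gastrectomy, an operation that removes most of the stomach. Sham-WM mice had a sham operation and were then given restricted food so that their weight followed that of the VSG mice, and Sham-Ad lib mice had a sham operation and ate freely. Poly(A) RNA of 4 livers per group was sequenced, 1 library per mouse, and each mouse is named here by its number in the labels (3F, 4F, 6F and 10F for Sham-Ad lib, 2F, 9F, 15F and 16F for Sham-WM, 1F, 8F, 11F and 18F for VSG).

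Macrophages of the liver comprise resident Kupffer cells, which line the sinusoids and renew themselves locally, and cells that arise from blood monocytes entering the tissue. Where lipid accumulates, macrophages switch on a programme of lipid sensing, uptake and lysosomal breakdown centred on the receptor TREM2, and the cells that carry it are called lipid-associated macrophages. Whole liver was measured, so that fewer cells of a type and less RNA per cell cannot be told apart.

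Assigned fragments ranged from 15122520 to 19384076 per library. A pair of facts about the libraries bears on every comparison below. First, the title and the description of all 12 samples name different animals, and libraries were placed by the animal number that their column carries. Grouping by the description field instead left 0 genes past the threshold in each comparison. Second, Sham-Ad lib mouse 4F held the highest level of its group for 9 of the 10 genes, and results are given with and without it. The S numbers that end the column names run in 1 block per group. What they stand for is not given, so an effect of any order they follow and the treatment cannot be told apart.

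The letters upstream of the 4 genes that passed the test in VSG against Sham-WM are shown first, because those 4 genes rose together. RefSeq promoters (GRCm38.p6, 250 bases before to 50 after the start of transcription) were found for 9 of the 10 genes. Fabp5 was not among them. The 250 bases before the start are printed 5′ to 3′ on the strand of the gene, for Ly6c2 (chr15:75111938-75112187, minus strand), Lyz2 (chr10:117282273-117282522, minus strand), Lgals3 (chr14:47373610-47373859, plus strand) and Cd9 (chr6:125494761-125495010, minus strand). Capitals mark a match to 1 of 4 short motifs on either strand: GAGGAAGT, a form bound by the myeloid factor PU.1, TGANTCA, a form bound by AP-1, and the E boxes CACGTG and CATGTG that factors of the MITF and TFE family read.
Ly6c2: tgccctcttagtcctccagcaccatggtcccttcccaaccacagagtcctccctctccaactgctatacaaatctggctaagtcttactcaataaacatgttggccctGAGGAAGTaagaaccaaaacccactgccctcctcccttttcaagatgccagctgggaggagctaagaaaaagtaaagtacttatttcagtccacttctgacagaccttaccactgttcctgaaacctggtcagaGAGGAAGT
Lyz2: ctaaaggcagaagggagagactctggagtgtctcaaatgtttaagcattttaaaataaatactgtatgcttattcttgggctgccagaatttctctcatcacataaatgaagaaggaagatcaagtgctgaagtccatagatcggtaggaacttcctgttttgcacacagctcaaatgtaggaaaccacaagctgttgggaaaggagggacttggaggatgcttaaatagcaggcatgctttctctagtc
Lgals3: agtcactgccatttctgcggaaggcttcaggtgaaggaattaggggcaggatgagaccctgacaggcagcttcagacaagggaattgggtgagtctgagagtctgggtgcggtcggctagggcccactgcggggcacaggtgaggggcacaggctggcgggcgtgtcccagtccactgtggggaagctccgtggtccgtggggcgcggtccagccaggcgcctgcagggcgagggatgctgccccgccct
Cd9: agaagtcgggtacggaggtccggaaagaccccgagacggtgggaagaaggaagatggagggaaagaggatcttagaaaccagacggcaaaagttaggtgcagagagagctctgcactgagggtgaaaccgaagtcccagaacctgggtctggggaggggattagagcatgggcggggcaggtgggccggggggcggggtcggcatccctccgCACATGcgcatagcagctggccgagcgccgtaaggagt

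Ly6c2 held GAGGAAGT 2 times, starting 142 and 8 bases before its start, and its second annotated start lay so that the nearer copy fell after it. Among the other genes, Spp1 held 1 copy of GAGGAAGT, before the first of its 2 starts. In all, 2 of the 9 genes held it. That is 3 of 12 promoters, against 3.2% of 32851 promoters of the same length, but both Ly6c2 promoters are overlapping windows that hold the same 2 copies. TGANTCA stood in 4 of the 12, those of Trem2, Itgax, Gpnmb and Ms4a7, against 7.81% of all promoters, and none of the 4 is among the genes that passed the test. CACGTG was found in 0 of the 12 (7.15% of all) and CATGTG in 2, those of Cd9 and Ms4a7 (14.2% of all). These are matches of letters in windows of 300 bases, and no binding was measured. Other forms of these motifs were not searched, so a gene without a match may hold one.

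Levels differed widely between the 10 genes. On the TPM scale, which accounts for gene length, Lyz2 was the most abundant at 197 on average over 12 libraries, followed by Spp1 at 63.5, Cd9 at 14.2, Lgals3 at 11.9 and Fabp5 at 7.33. Ly6c2 averaged 3.46 TPM. Gpnmb (1.06), Itgax (0.998), Trem2 (0.959) and Ms4a7 (0.736) stood near 1 TPM, with ranges over mice that overlap. All further levels are CPM, counts scaled to library size with TMM, each gene compared only with itself.

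**Figure D1:**
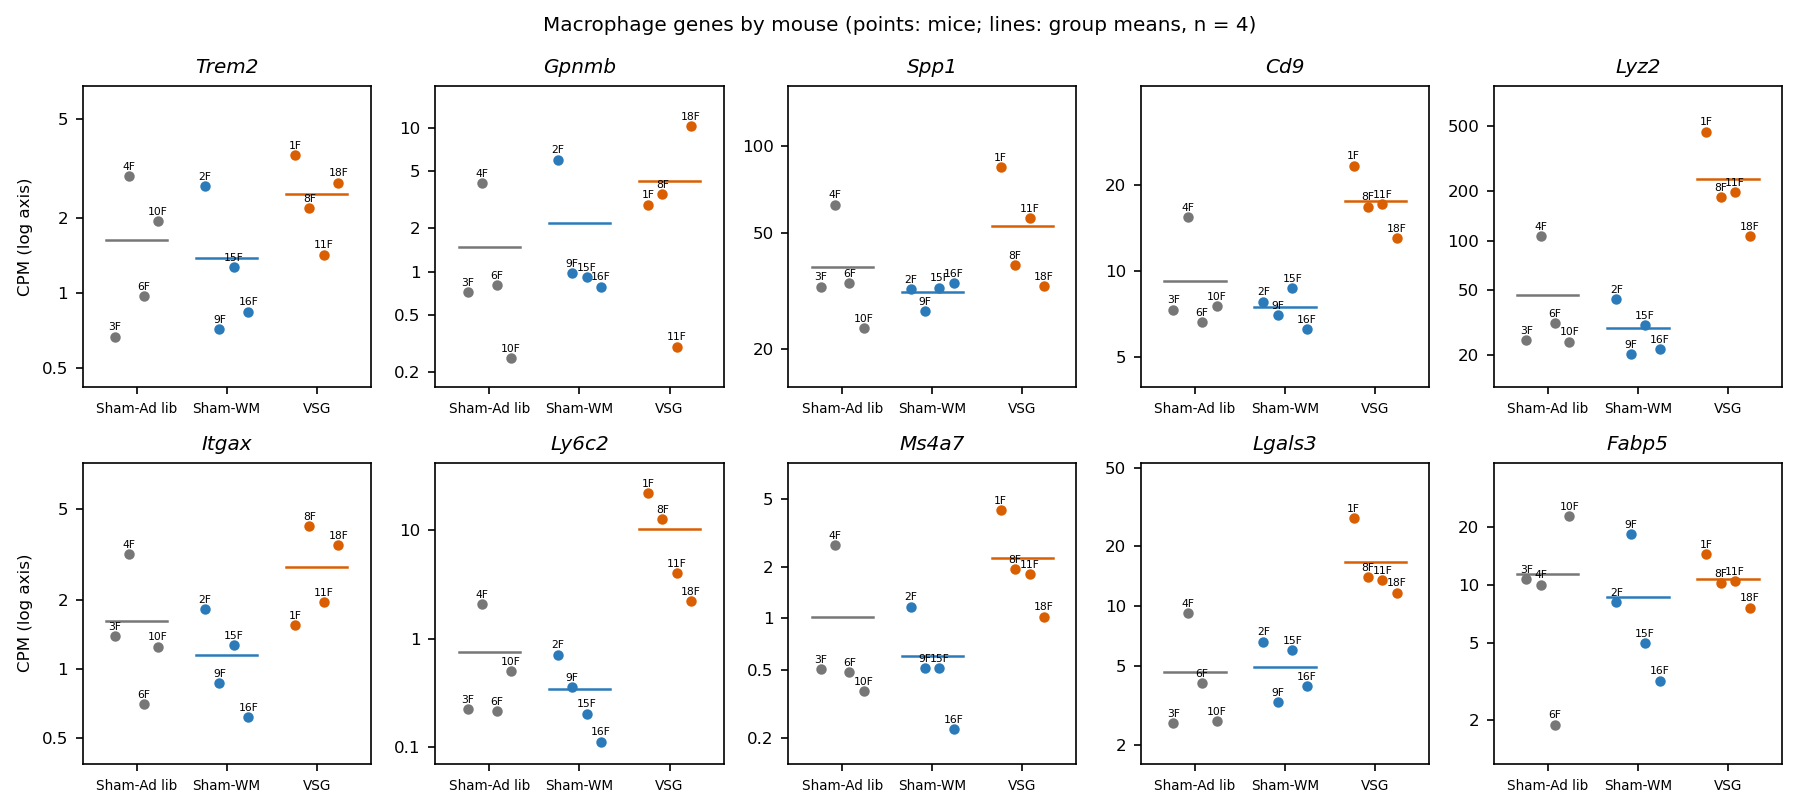
Level of each of the 10 genes in every mouse, in CPM on a log axis, by group; points are mice with their numbers and lines are group means (n = 4). All VSG points lie above all Sham-WM points for Ly6c2, Lyz2, Lgals3 and Cd9, and mouse 4F is the highest Sham-Ad lib point except for Fabp5.

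Whether sleeve gastrectomy differs from the same weight loss by food restriction is the question of VSG against Sham-WM. Ly6c2, Lyz2, Lgals3 and Cd9 were higher in VSG livers and passed the test. All 10 genes had a positive log2 fold change, with a median of 1.26 beside 0.03 over all genes tested. edgeR's quasi-likelihood test with Benjamini-Hochberg adjustment over 13054 genes called 4 of the 10, all higher. The same rule called 26.9% of all genes, and 15.0% of all genes as higher, so that a call by itself was common in this comparison. At an unadjusted p under 0.05 there were 7 of the 10 (40.4% of all genes), and DESeq2 called 6 (27.8% of its genes), adding Itgax and Ms4a7. Values did not overlap between the groups, with VSG higher, for 4 of the 10, against 14.3% of all genes.

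Ly6c2 (chr15:75108158-75111970, minus strand, mm10) encodes the surface protein Ly6C2, which marks inflammatory monocytes newly arrived from blood and is also made by immature granulocytes. Its level in VSG mice was 22.1 CPM in 1F, 12.7 in 8F, 3.99 in 11F and 2.22 in 18F. In Sham-WM mice it was 0.713 in 2F, 0.358 in 9F, 0.204 in 15F and 0.113 in 16F. The lowest VSG mouse stood above the highest Sham-WM mouse, and the VSG mice themselves spread 9.94-fold. The log2 fold change was 4.84 ± 0.87 (SE, edgeR adjusted p = 0.00245), and an exact two-sided permutation test of the log2 levels gave p = 0.0286, the smallest that 4 against 4 allows. Ly6c2 passed the filter on low counts through the VSG mice, which held 39 to 369 fragments. Sham-WM counts were only 2 to 14 fragments, so that the size of this fold is loosely set. Without mouse 1F it was 4.15, without 2F 5.45, and without both 1F and 8F 3.07 (adjusted p = 0.0307).

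Lyz2 (chr10:117277331-117282321, minus strand) encodes lysozyme M, an antibacterial enzyme of monocytes, macrophages and neutrophils. VSG mice held 463 CPM in 1F, 184 in 8F, 198 in 11F and 106.7 in 18F. In Sham-WM mice the values were 44.2 in 2F, 20.4 in 9F, 30.6 in 15F and 21.8 in 16F. The groups were far apart, with 1F the highest VSG mouse. The log2 fold change was 3.02 ± 0.55 (SE, edgeR adjusted p = 0.00258).

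Lgals3 (chr14:47367751-47386160, plus strand) encodes galectin-3, a secreted lectin of activated macrophages. VSG mice held 27.9 CPM in 1F, 13.99 in 8F, 13.5 in 11F and 11.7 in 18F. Sham-WM mice held 6.63 in 2F, 3.28 in 9F, 6.02 in 15F and 3.94 in 16F. Without 1F the remaining VSG mice lay close together, still above every Sham-WM mouse. The log2 fold change was 1.75 ± 0.41 (SE, edgeR adjusted p = 0.00837). Leaving out both 1F and 8F, an alternative added after the data were seen, brought it to 1.31 and ended the call (adjusted p = 0.0661).

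Cd9 (chr6:125460266-125494791, minus strand) encodes a tetraspanin that organises membrane receptors and is used to sort lipid-associated macrophages. VSG mice held 23.4 CPM in 1F, 16.8 in 8F, 17.2 in 11F and 13.03 in 18F, and Sham-WM mice 7.80 in 2F, 7.01 in 9F, 8.72 in 15F and 6.25 in 16F. Both groups were tight and did not overlap. The log2 fold change was 1.24 ± 0.26 (SE, edgeR adjusted p = 0.00522), the smallest of the 4 called genes.

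Ms4a7 and Itgax came next. Ms4a7, a membrane protein found in macrophages of monocyte origin and not in resident Kupffer cells, had a log2 difference of 1.89 ± 0.67 (SE, edgeR adjusted p = 0.0510). Its VSG values ran from 1.02 to 4.30 CPM and its Sham-WM values from 0.225 to 1.17, and VSG mouse 18F fell below Sham-WM mouse 2F. Like Ly6c2, Ms4a7 passed the filter on low counts through the VSG mice. Itgax, the integrin chain CD11c, had a log2 difference of 1.2795 ± 0.47 (SE, edgeR adjusted p = 0.0595), with VSG values of 1.55 to 4.19 CPM and Sham-WM values of 0.619 to 1.83. Both passed the threshold when mouse 4F or 2F was left out (Ms4a7 adjusted p = 0.0158 and 0.0379, Itgax 0.0336 and 0.0445). Ms4a7 also passed without 18F (0.0336) and Itgax without 6F (0.0490).

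The remaining 4 genes, grouped here after their values were seen, were less separated. They are not the whole lipid-associated part of the set, since Cd9 passed the test. Spp1, the secreted phosphoprotein osteopontin, had a log2 difference of 0.76 ± 0.30 (SE, edgeR adjusted p = 0.0782), with 33.0 to 84.3 CPM in VSG and 27.1 to 33.7 in Sham-WM. It passed the threshold without 4F (adjusted p = 0.0382) or without 18F (0.0342). Trem2, the lipid receptor of lipid-associated macrophages, had 1.43 to 3.59 CPM in VSG and 0.717 to 2.70 in Sham-WM, a log2 difference of 0.85 ± 0.49 (SE, edgeR adjusted p = 0.214). Gpnmb, a lysosomal glycoprotein of lipid-loaded macrophages, differed by 0.97 ± 0.91 (SE, edgeR adjusted p = 0.445) and Fabp5, a fatty acid chaperone, by 0.30 ± 0.59 (adjusted p = 0.730). For these 4 genes the groups overlapped and the standard errors leave room for a difference in size that these mice cannot fix.

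An estimate of unwanted variation changed this comparison. The study's methods report removing batch variation with 2 RUVSeq factors, without saying which RUVSeq approach was used. With 2 factors estimated by the RUVs approach from replicate differences, 1 of the 10 genes was called, Ly6c2, at a log2 fold change of 1.64, where 4.01% of all genes were called. Lyz2 then stood at 1.275 (adjusted p = 0.0863), Lgals3 at 0.72 (0.332) and Cd9 at 0.44 (0.320). Trem2, Spp1, Ms4a7 and Fabp5 turned to log2 values of -0.03, -0.10, -0.24 and -0.83. With 2 factors from model residuals (RUVr), 7 of the 10 were called, and 42.1% of all genes. Grouped by the description field, 0 were called and Itgax turned to -0.11.

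**Figure D2:**
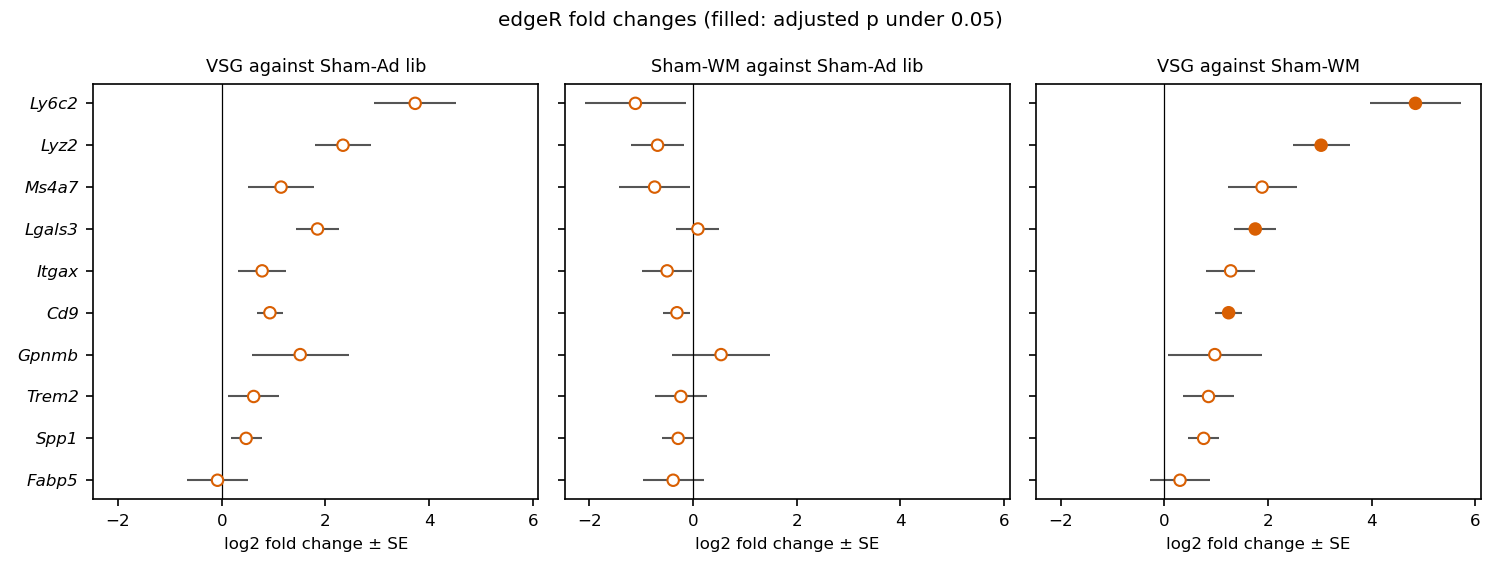
edgeR log2 fold changes of the 10 genes with standard errors, in 3 comparisons; filled points have an adjusted p under 0.05. The 4 filled points are in VSG against Sham-WM, from Cd9 at 1.24 to Ly6c2 at 4.84.

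VSG against Sham-Ad lib asks what the operation changes relative to unrestricted feeding. Of the 10 genes 9 lay higher and Fabp5 lower, with a median log2 difference of 1.04 beside 0.03 over all genes. edgeR called 0 of the 10, against 0.751% of all genes in either direction and 0.467% higher. At an unadjusted p under 0.05 there were 4 (24.1% of all genes), and DESeq2 called 4 (8.4% of its genes), in both cases Cd9, Lyz2, Ly6c2 and Lgals3. Ly6c2 and Lgals3 were the 2 genes whose values did not overlap, against 4.87% of all genes with VSG higher.

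These 4 genes lay just outside the threshold. Ly6c2 had 2.09 CPM in Sham-Ad lib mouse 4F and 0.223, 0.216 and 0.502 in 3F, 6F and 10F, and the log2 difference from VSG was 3.73 ± 0.80 (SE, edgeR adjusted p = 0.0502). Lgals3 had 9.23 CPM in 4F and 2.57, 4.11 and 2.64 in 3F, 6F and 10F, a difference of 1.85 ± 0.41 (adjusted p = 0.0513). Mouse 4F was the highest of its group in both, yet below the lowest VSG mouse. Lyz2 had 107.3 CPM in 4F, level with VSG mouse 18F, and 24.8, 31.5 and 24.3 in the rest, a difference of 2.34 ± 0.53 (adjusted p = 0.0530). Cd9 had 15.5 CPM in 4F, above 18F, and 7.31, 6.60 and 7.53 in the rest, a difference of 0.93 ± 0.26 (adjusted p = 0.0705).

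These calls depended on the mice in the fit and on the method. With all 12 mice, 4 of the 10 were called with no filter on low counts (2.72% of all genes) and 5 with 2 RUVr factors (23.2%), beside the 4 of DESeq2. Without 4F, 6.82% of all genes and 5 of the 10 were called: Ly6c2 (log2 5.03), Lyz2 (3.14), Lgals3 (2.43), Ms4a7 (2.29) and Cd9 (1.30), with adjusted p between 0.00519 and 0.0332. Without VSG mouse 18F, 4 were called (8.2% of all genes), all but Ms4a7 of those 5. Leaving out 4F together with 1F and 8F, also chosen after the data were seen, called the same 4 at log2 values of 3.23, 2.44, 1.96 and 1.02, and 1.52% of all genes. The other leave-one-out fits called 0. Of the remaining genes, Gpnmb had a log2 difference of 1.51 ± 0.94 (SE), Ms4a7 1.14 ± 0.64, Itgax 0.78 ± 0.46, Trem2 0.62 ± 0.49, Spp1 0.47 ± 0.30 and Fabp5 -0.08 ± 0.59, with edgeR adjusted p from 0.287 to 0.944. Spp1, Trem2 and Ms4a7 turned to -0.19, -0.03 and -0.31 with 2 RUVs factors.

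For Sham-WM against Sham-Ad lib, which addresses food restriction alone, Gpnmb and Lgals3 lay higher and 8 genes lower, with a median log2 difference of -0.35 beside 0.00 over all genes. edgeR called 0 of the 10 (6.99% of all genes, 3.53% higher), 0 were at an unadjusted p under 0.05 (21.6% of all genes), and DESeq2 called 0 (10.4% of its genes). Values overlapped for every gene of the 10, where 9.17% of all genes were higher without overlap. The log2 differences ran from -1.11 ± 0.97 (SE) for Ly6c2 to 0.54 ± 0.95 for Gpnmb. Without 4F, 7 of the 8 negative differences turned positive, and only that of Fabp5 stayed negative. The sign of these differences depended on mouse 4F, and neither edgeR nor DESeq2 called a difference in level between the sham groups for these genes. Both comparisons above with Sham-Ad lib share its 4 mice.

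Gpnmb behaved by mouse more than by group. Its counts were 181 in VSG mouse 18F, 118 in Sham-WM mouse 2F, 77 in Sham-Ad lib mouse 4F, 68 in VSG mouse 8F and 49 in 1F. Every other mouse had 4 to 19, and the low value of 4 was shared by 10F and by VSG mouse 11F. So each group held at least 1 mouse with high Gpnmb, and the VSG mice spread 34.2-fold. Mmp12, a macrophage elastase of the same programme that was chosen after its values were seen, had its highest counts in the same 5 mice: 191 in 18F, 83 in 2F, 61 in 1F, and 59 in both 4F and 8F. The other 7 mice held 2 to 16, with the lowest in 11F. Mice 18F and 11F, at opposite ends for Gpnmb and Mmp12, differed less for Trem2, at 49 and 19 counts, and for Spp1, at 580 and 748.

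**Figure D3:**
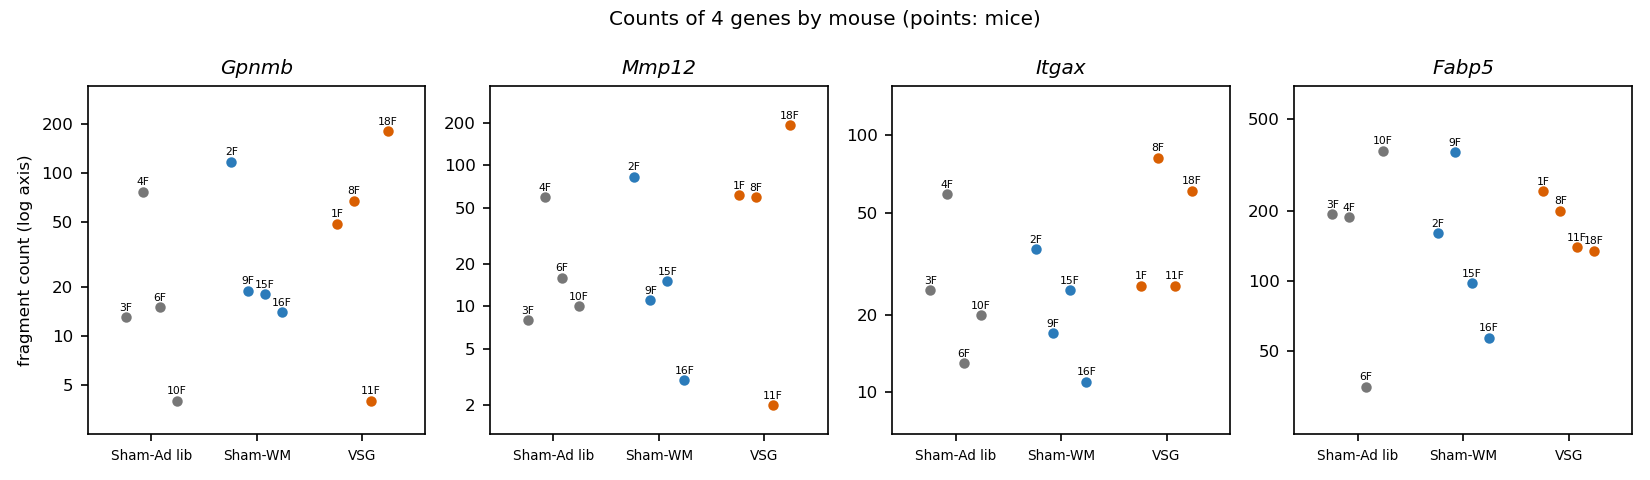
Fragment counts of Gpnmb, Mmp12, Itgax and Fabp5 in every mouse on a log axis, by group; points are mice. Mice 18F, 2F, 4F, 8F and 1F hold the 5 highest counts of both Gpnmb and Mmp12, whereas Fabp5 is highest in 10F and 9F.

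Fabp5 stood apart from the rest. Sham-Ad lib mice held 10.8 CPM in 3F, 10.1 in 4F, 1.89 in 6F and 22.9 in 10F, a 12.1-fold spread within 1 group. Sham-WM mice ran from 3.21 to 18.4 CPM and VSG mice from 7.68 to 14.6. The VSG mice were the most alike, inside the range of both sham groups. Across 12 libraries its log2 level had a Pearson r of 0.29 with the mean of the pan-macrophage list below, where the other genes had 0.44 (Gpnmb) to 0.99 (Lyz2). In whole liver Fabp5 therefore did not track these macrophage and leukocyte genes, and Gpnmb did so weakly. Some genes followed another marker list more, named here after their values were seen. Itgax had an r of 0.83 with the dendritic cell list and 0.82 with the B cell list, beside 0.69 with the pan-macrophage list. Gpnmb had 0.76 with the sinusoidal endothelial list. This was not particular to Itgax and Gpnmb. Trem2 had 0.83 with the lipid-associated list, beside 0.74 with the pan-macrophage list, and Fabp5 had 0.51 with the T and NK cell list. Closer to level were Lgals3 with the Kupffer cell list (0.96 beside 0.94) and Ly6c2 with the neutrophil list (0.9805 beside 0.9767).

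Part of the remaining genes moved together from mouse to mouse. After removing group means, the Pearson r over 12 libraries between Cd9, Lyz2, Ly6c2, Ms4a7 and Lgals3, grouped here after their values were seen, ran from 0.73 (Ly6c2 with Lgals3) to 0.96 (Lyz2 with Lgals3). Spp1 followed Lyz2 (0.89) more than Trem2 (0.32). Itgax followed these genes least, with 0.0031 for Spp1, 0.30 for Lyz2 and 0.33 for Lgals3, and 0.57 for Trem2. Trem2 with Lgals3 had 0.71. The lowest of all pairs was -0.12 for Lgals3 with Fabp5. These are descriptions over libraries that share depth and tissue composition. By the mean of their z-scores, VSG mouse 1F stood highest at 1.42, then 8F at 0.87 and Sham-Ad lib mouse 4F at 0.82, above VSG mice 18F (0.58) and 11F (0.50).

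Genes outside the set whose log2 level was most like that of a member over 12 libraries were mostly leukocyte genes for the called members. For Lyz2 they were C1qa (r = 0.99), Tyrobp and Cd52, and for Ly6c2 Coro1a (r = 0.99), Cd300a and Igsf6. For Cd9 they were Cd300ld, Slc11a1 and Fyb (r = 0.99 each), and for Lgals3 Ccl6 (r = 0.98), Dmpk and Ckb. The likeness was lower for Trem2 (Scamp5, r = 0.89), Gpnmb (Chmp6, 0.88), Fabp5 (Ndor1, 0.88) and Itgax (Pck2, 0.86).

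The label of the set was checked against marker lists for the cells a liver can hold. Resident Kupffer cell markers moved with the called genes: 12 of 12 rose in VSG against Sham-WM (median log2 1.95), among them Marco (3.63 ± 0.79, SE), Cfp, Cd5l and Clec4f (1.63 ± 0.26), and 4 of 12 against Sham-Ad lib (11 by DESeq2). Their summed level was 831 to 1987 CPM in VSG, 280 to 437 in Sham-WM and 373 to 726 in Sham-Ad lib, with none of the 12 at 0 in any library. Of the pan-macrophage and leukocyte list, 15 of 16 rose against Sham-WM (median 2.24), among them Itgam (3.01 ± 0.70) and Coro1a (2.44 ± 0.47), and 1, Fcer1g, against Sham-Ad lib (14 at an unadjusted p under 0.05, 13 by DESeq2). Markers of monocytes and monocyte-derived macrophages rose in 12 of 14 tested (median 2.64), led by Chil3, Ifitm6 and F13a1, and in 3 against Sham-Ad lib, which were Chil3, Ifitm6 and Cd14 (13 by DESeq2). Chil3, Ifitm6 and F13a1 had at most 5, 4 and 7 counts in Sham-WM mice and passed the filter through the VSG mice. Markers of resident cells, of recruited cells and of macrophages in general were thus all higher in VSG than in Sham-WM livers. Neutrophil markers, given below, were higher too. How much of each gene's level came from which cells was not tested, Chil3, Ifitm6 and Cd14 included.

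Neutrophil markers moved more than any of these lists. All 10 tested rose in VSG against Sham-WM (median log2 7.44) and 8 against Sham-Ad lib (median 5.96), among them the granule genes Ngp, Ltf, Camp, Mpo and Elane of immature neutrophils. These granule genes had 0 to 6 counts in every sham mouse but 4F, so they passed the filter through the VSG mice alone. That all tested markers rose is therefore partly set by the filter. The summed level of the 11 neutrophil markers was 1162 CPM in 1F, 515 in 8F, 151 in 11F and 40.0 in 18F. It was 23.3 in Sham-Ad lib mouse 4F, and 1.41 to 4.13 in the other 7 sham mice, in which 2 to 6 of the 11 markers were at 0. The VSG mice fall in the same order for Ly6c2, from 1F through 8F and 11F to 18F, and 4F is the highest sham mouse in both. Lgals3, Ms4a7 and the summed Kupffer cell and monocyte markers follow this order too, also with 4F the highest sham mouse. The order is thus not particular to Ly6c2 and neutrophil markers. Neutrophils and their precursors also carry Lyz2 and Ly6c2, and their part in the levels of these 2 genes was not tested. Lyz1, lysozyme P, rose with its neighbour Lyz2 (log2 3.24 ± 0.53, SE, edgeR adjusted p = 0.00168).

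Few markers of non-immune liver cells passed the test. Of cholangiocyte, stellate and sinusoidal endothelial markers, 0 of 5, 0 of 10 and 0 of 7 tested rose in VSG against Sham-WM, and Lrat and Kdr fell. Spp1 and Cd9 are made by bile duct cells too. The 5 of 8 bile duct markers tested had a median log2 difference of -0.27, and all 8 summed to 21.7 to 32.3 CPM in VSG, 23.7 to 33.3 in Sham-WM and 21.9 to 38.7 in Sham-Ad lib, with 0 to 2 of them at 0 in a library. The part of these cells in the levels of Spp1 and Cd9 was not tested. The 4 adipocyte markers summed to 0 to 2 counts in every library. Of 5 hepatocyte genes, Alb fell in VSG against Sham-WM (log2 -0.73 ± 0.22).

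**Figure D4:**
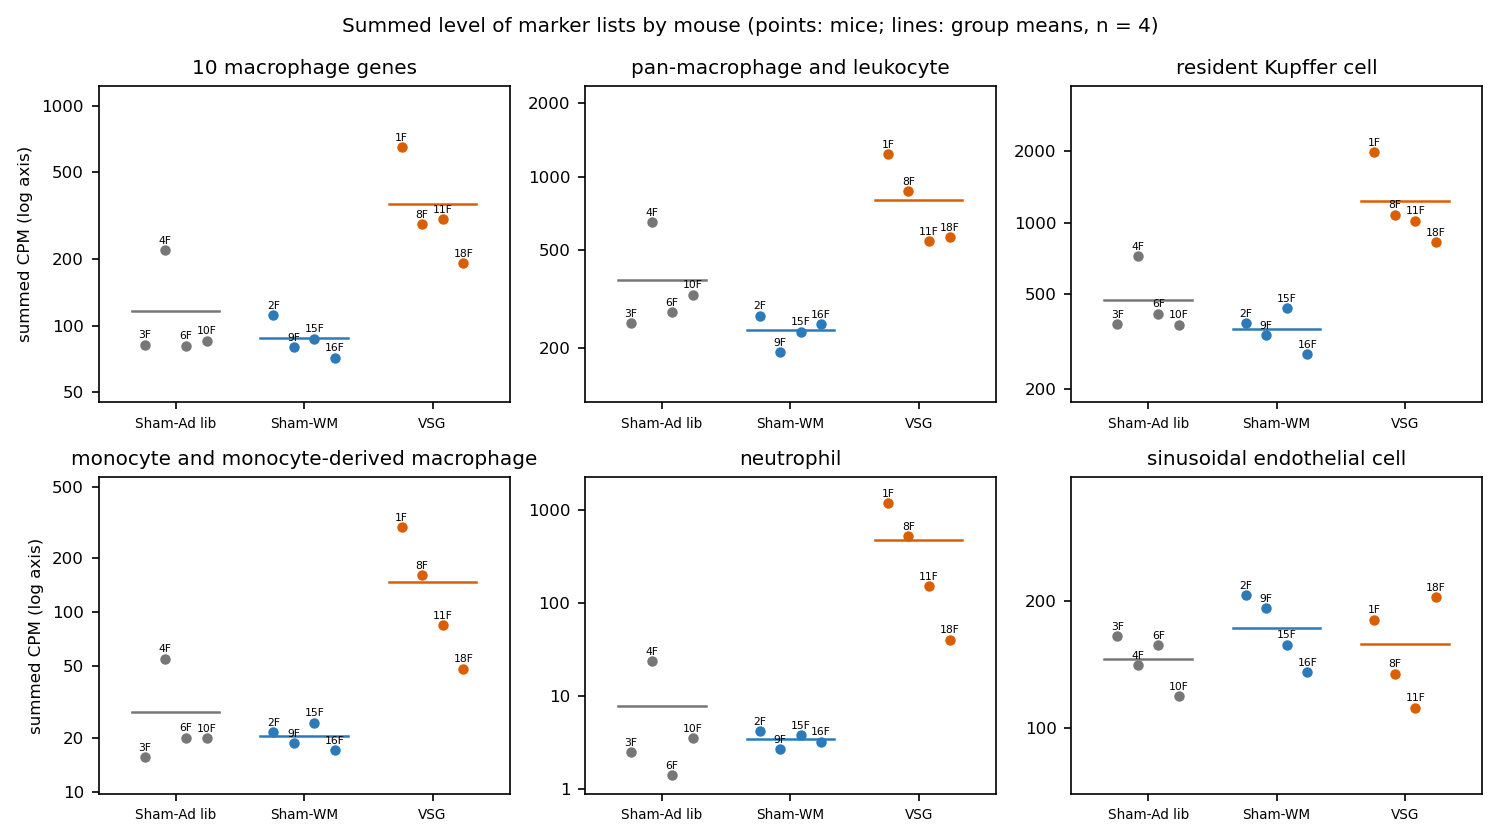
Summed level of the 10 genes and of 5 marker lists in every mouse, in CPM on a log axis; points are mice and lines are group means (n = 4). VSG mice lie above Sham-WM mice for the macrophage, Kupffer cell, monocyte and neutrophil lists and overlap with them for sinusoidal endothelial cells, and mouse 4F is the highest Sham-Ad lib point except there.

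Set against macrophage and general leukocyte genes of the same liver, the 10 genes separated. The log2 level of each was taken relative to the mean of the 16 pan-macrophage and leukocyte genes in the same library. Ly6c2 and Lyz2 were higher in VSG than in Sham-WM without overlap on this relative scale, by 2.17 and 0.90, where 0.337% of all genes were. Spp1, Cd9 and Fabp5 were lower without overlap, by -1.31, -0.77 and -1.41, where 88.1% of all genes were. Trem2, Gpnmb, Itgax, Ms4a7 and Lgals3 overlapped, with relative differences of -1.07, -1.25, -0.79, -0.26 and -0.28. A negative relative difference was thus the rule for genes of the liver in this comparison and not particular to these 8, as the share of all genes shows. Against Sham-Ad lib, Ly6c2 and Lyz2 were again higher without overlap, by 2.00 and 0.90 (0.214% of all genes), and Spp1 was lower, by -1.07 (15.5%), while the other 7 overlapped, Lgals3 at 0.41. Lgals3 was also higher in Sham-WM than in Sham-Ad lib without overlap, by 0.68, where 7.69% of all genes were.

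The choice of reference mattered for Lyz2. Relative to the mean of the 12 resident Kupffer cell genes, Ly6c2 was higher in VSG than in Sham-WM without overlap, by 2.25 (0.291% of all genes), but Lyz2 overlapped, with a difference of 0.99. Spp1, Cd9 and Fabp5 were again lower without overlap, as 87.7% of all genes were. Against Sham-Ad lib on this scale, both Ly6c2 and Lyz2 overlapped, Lgals3 was higher without overlap, by 0.30 (0.0919% of all genes), and Spp1 and Cd9 were lower (56.7%).

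**Figure D5:**
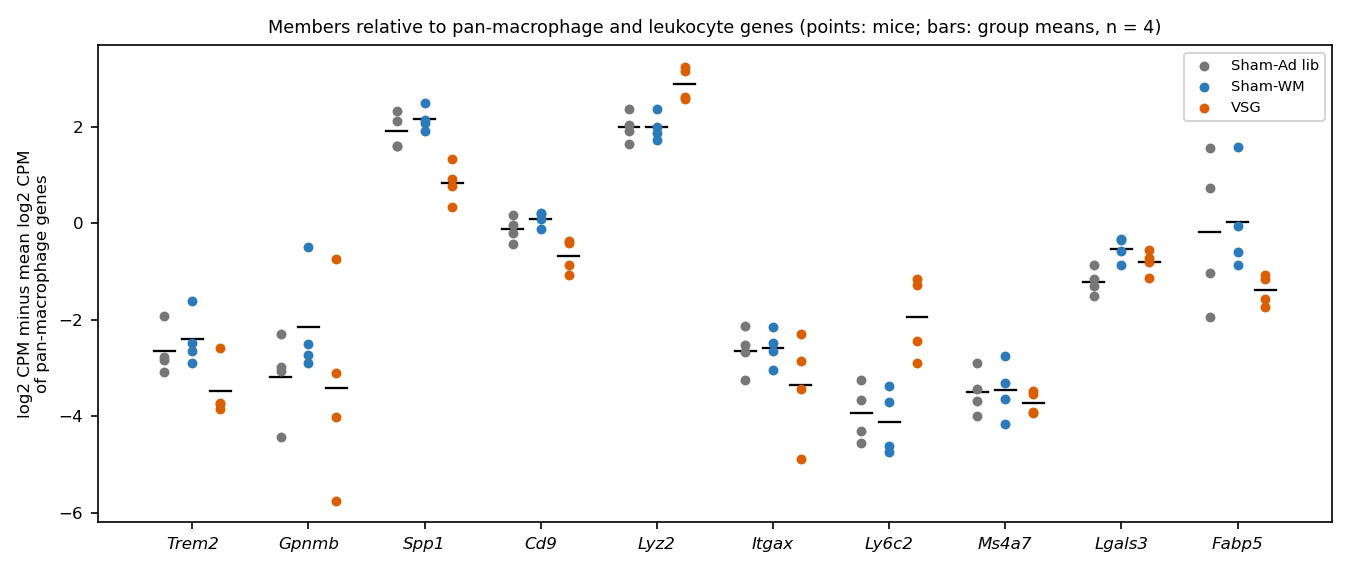
Log2 CPM of each gene minus the mean log2 CPM of 16 pan-macrophage and leukocyte genes in the same library; points are mice, coloured by group, and bars are group means (n = 4). VSG points lie above both sham groups for Lyz2 and Ly6c2 and below both for Spp1.

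Of 20 tested other genes of the lipid-associated programme, 10 rose in VSG against Sham-WM and 1 fell (median log2 0.66), and 0 were called against Sham-Ad lib (12 at an unadjusted p under 0.05, 9 by DESeq2). Among those that rose were Capg, an actin-capping protein (1.94 ± 0.51, SE), the lysosomal membrane protein Cd68 (1.52 ± 0.33), lipoprotein lipase Lpl (1.45 ± 0.38) and the tetraspanin Cd63 (1.277 ± 0.42). Lipa, the lysosomal acid lipase that frees cholesterol and fatty acids, went the other way. It fell in VSG against Sham-WM (-0.68 ± 0.10, edgeR adjusted p = 0.00112) and rose in Sham-WM against Sham-Ad lib (0.38 ± 0.10, adjusted p = 0.0421). Several of these genes, Lipa and Apoe among them, are strongly expressed by hepatocytes.

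Partners and receptors of the 10 genes rose in 8 of 15 tested in VSG against Sham-WM (median log2 1.27), and 0 were called against Sham-Ad lib (9 at an unadjusted p under 0.05, 6 by DESeq2). Tyrobp, the adaptor through which TREM2 signals, rose by 2.08 ± 0.42 (SE), and the kinase Syk downstream of it by 1.71 ± 0.39. Cd44, a receptor for osteopontin, rose by 2.37 ± 0.48, and Itgb2, the integrin chain that pairs with CD11c, by 2.21 ± 0.43. These partners are used by many leukocytes. In all, 3 of the 15 had a negative difference. Among them, named after their values were seen, were 2 further integrin chains of osteopontin receptors, Itgav (24.1 CPM in VSG, 31.8 in Sham-WM, log2 -0.40 ± 0.15, SE, edgeR adjusted p = 0.0714) and Itgb5 (88.1 and 92.4 CPM, -0.07 ± 0.10, adjusted p = 0.655).

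Close relatives of the 10 genes rose in 10 of 17 tested. Apart from Lyz1, those with the largest differences were Treml2 (3.16 ± 0.70, SE), Ms4a4c (2.54 ± 0.68), Ms4a6b (2.39 ± 0.53) and Cd53 (2.08 ± 0.38). Against Sham-Ad lib 1 was called, Lyz1 (2.67 ± 0.51, edgeR adjusted p = 0.0442).

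Some of these genes resemble a relative closely enough to share reads. The first 100 coding bases of Lyz2 and Lyz1, and of Ly6c2 and Ly6c1, are shown from the GENCODE M21 transcripts, 5′ to 3′ from the start codon, with bases that differ within a pair in capitals.
Lyz2: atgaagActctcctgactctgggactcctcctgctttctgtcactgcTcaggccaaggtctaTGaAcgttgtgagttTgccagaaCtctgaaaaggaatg
Lyz1: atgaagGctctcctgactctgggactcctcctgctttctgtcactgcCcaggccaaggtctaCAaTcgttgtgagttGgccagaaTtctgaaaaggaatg
Ly6c2: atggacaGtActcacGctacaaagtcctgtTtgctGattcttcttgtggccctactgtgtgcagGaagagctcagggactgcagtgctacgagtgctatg
Ly6c1: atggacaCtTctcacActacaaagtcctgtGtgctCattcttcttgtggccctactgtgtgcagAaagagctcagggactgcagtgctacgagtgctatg

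Lyz2 and Lyz1 differ at 22 of 444 coding bases, 7 of them in the stretch shown. Ly6c2 and Ly6c1 differ at 6 of these 100 bases and share a run of 188 identical coding bases. Of all 100-base windows of its transcripts, Lyz2 shares 1.97% with Lyz1, Ly6c2 5.81% with Ly6c1, Itgax 3.05% with Itgad, and Fabp5 2.19% with processed copies. Spp1 shares 5.85% with Gm42793, a provisional gene model on the same strand with 309 exon bases in common. Cd9 shares 218 exon bases with Gm26728 on the opposite strand, and the strand setting of the counting is not given in the sources used here. Counts of these genes are uncertain to that extent. Ly6c1 itself had 5 to 11 counts in VSG mice, 4 to 6 in Sham-WM mice and 1 to 6 in Sham-Ad lib mice, beside 39 to 369, 2 to 14 and 4 to 39 counts of Ly6c2. Lyz1, which was called above, averaged 12.5 CPM in VSG, 1.31 in Sham-WM and 1.94 in Sham-Ad lib. Lyz2 averaged 238, 29.25 and 47.0 CPM in these groups. How many reads were shared within either pair, and their part in the rise of Lyz1, was not tested.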

How the data were processed

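RNA-seq of 12 livers, 4 per group, was analysed. The authors aligned paired reads to mm10 with TopHat2 2.1.1 and counted fragments per gene with featureCounts, per the labels and methods; the deposited table holds raw counts, unnormalised, for 46078 Ensembl genes. The annotation release and the strand setting are not given in the sources used here. Libraries held 15122520 to 19384076 counts, and low counts limit precision for Gpnmb, Ms4a7, Itgax, Trem2 and Ly6c2.

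Columns were assigned by animal number, and grouping by the description field was an alternative. Genes with at least 10 counts in enough libraries (filterByExpr, total of at least 15) were fitted over all 12 libraries with edgeR 4.0.16 (TMM, quasi-likelihood, R 4.3.3) without a block, with adjustment over 13054 genes and a threshold of 0.05. A gene could pass the filter through 1 group alone, so that passing is not separate from being high in that group. Standard errors are the log2 fold change over the square root of F. Log2 levels used a prior count of 2, and TPM the exon union of GENCODE M21. Exact permutation tests were two-sided. The procedure was tested on simulated data. DESeq2 1.42.0, other scalings and filters, 2 RUV factors (the study used RUVSeq to remove batch variation) and each library left out were alternatives. The 10 genes and the lists were chosen with earlier results of these data known. All 10 genes are named. Of list genes, those called may be named, at most 5 per list and comparison by size of change, and Mmp12 was added after its values were seen. Clec4f and Elane are named outside the order by size of change. Some called list genes are not reported here by name. For likeness, the 3 genes with the highest Pearson r and a mean log2 CPM of at least 1 were taken. A planned protein comparison was replaced by one of transcripts. The mice of a group are separate animals.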

Additional observations from a re-analysis of the deposited data

Results flagged for a closer look

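In 7 of 30 groups of 4 mice, 1 mouse lay far from the others of its group by Dixon's gap test on CPM. Chance alone flags about 1 in 20 groups where values are normally distributed. CPM on its plain scale can be skewed upwards, so that rate need not hold here. In each of the 7 groups the flagged mouse was the highest. Within Sham-Ad lib it was mouse 4F in 5 genes: Lyz2 at 107.3 CPM (the next mouse at 31.54), Cd9 at 15.45 (7.529), Gpnmb at 4.132 (0.8114), Ms4a7 at 2.683 (0.5023) and Ly6c2 at 2.093 (0.5019). These 5 flags concern 1 mouse and genes that move together, so they are not 5 separate events. Mouse 4F also had the highest summed neutrophil markers of all sham mice, 23.3 CPM, and the highest summed Kupffer cell markers, 726 CPM. Their part in the result was not tested. Within Sham-WM, mouse 2F stood apart for Gpnmb at 6.013 CPM, with the next mouse at 0.9728. Within VSG, mouse 1F stood apart for Lgals3 at 27.9 CPM, with the next mouse at 13.99.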

How the results depend on the processing

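Of the calls in VSG against Sham-WM (4 genes), those of Cd9, Lyz2, Ly6c2 and Lgals3 held in all 12 fits that left out 1 library. The number called then ran from 4 to 7. Over all genes those fits called from 2196 of 13284 (without 16F) to 3868 of 13287 (without 18F). Of the 10 genes, 1 was called with 2 RUVs factors (4.01% of all genes) and 7 with 2 RUVr factors (42.1%). Grouped by the description field, 0 were called, as over all genes. In VSG against Sham-Ad lib (0 called) the number was 4 with DESeq2 (8.4% of its genes) and 1 with DESeq2 size factors (127 of 13054 genes). It was 4 with no filter (2.72%), 5 with 2 RUVr factors (23.2%) and 4 without 4F, 1F and 8F (1.52%). When 1 library was left out it was 0 to 5, and 0 to 1089 over all genes. In Sham-WM against Sham-Ad lib the number of the 10 called stayed 0 under every alternative run, where 0 to 2162 of all genes were called. A filter of at least 10 counts in every library left out Gpnmb, Ly6c2 and Ms4a7, which then have no value. No scaling moved the median of all genes by over 0.1 on the log2 scale. Over all genes the calls in VSG against Sham-Ad lib ran from 0 to 3031 beside 98. The causes were not tested.

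Directions turned in these cases, given as log2 differences. With 2 RUVs factors, VSG against Sham-Ad lib became -0.0251 for Trem2, -0.19 for Spp1 and -0.31 for Ms4a7, VSG against Sham-WM -0.0251 for Trem2, -0.10 for Spp1, -0.24 for Ms4a7 and -0.83 for Fabp5, and Sham-WM against Sham-Ad lib 1e-04 for Trem2. Grouped by the description field, Itgax in VSG against Sham-WM became -0.11, and Sham-WM against Sham-Ad lib became 0.32 for Trem2, 0.15 for Spp1, 0.21 for Cd9, 0.33 for Lyz2, 0.81 for Itgax, 1.74 for Ly6c2 and 0.98 for Ms4a7. Without 4F, 1F and 8F, chosen after seeing the data, the latter comparison gave 0.21 for Trem2, 0.0397 for Spp1, 0.0405 for Cd9, 0.10 for Lyz2, 0.0306 for Itgax, 0.16 for Ly6c2 and 0.39 for Ms4a7. With 1 library left out, Sham-WM against Sham-Ad lib ran from -0.78 to 0.23 for Trem2, -0.74 to 1.84 for Gpnmb, -0.47 to 0.0591 for Spp1, -0.44 to 0.0609 for Cd9, -0.95 to 0.12 for Lyz2, -0.82 to 0.0506 for Itgax, -1.72 to 0.19 for Ly6c2, -1.27 to 0.41 for Ms4a7, -0.10 to 0.67 for Lgals3 and -1.05 to 0.19 for Fabp5, and VSG against Sham-Ad lib from -0.44 to 0.48 for Fabp5. The groups share no replicate numbers. No paired analysis was possible because animal numbers do not recur between groups.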

Other observations

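Most lymphoid and dendritic markers tested were also higher in VSG livers than in Sham-WM livers, though at low levels. A T and NK cell marker and a dendritic cell marker lay lower, 1 of each. Of 10 T and NK cell markers, 5 passed the filter and 3 rose, where 15.0% of all genes were called higher. These were Gzma, a granzyme of killer cells (log2 2.53 ± 0.65, SE, edgeR adjusted p = 0.0133), Nkg7 (2.01 ± 0.44) and Cd3g, a chain of the T cell receptor complex (1.65 ± 0.45). Among the 5 B cell markers, those that rose included Cd22 (1.81 ± 0.40) and Cd79b (0.95 ± 0.26). Of 9 dendritic cell markers, 6 passed the filter, and Clec10a (2.28 ± 0.72) and Xcr1 (1.33 ± 0.42) rose. In VSG against Sham-Ad lib 0 of these 16 genes were called (0.751% of all genes). An unadjusted p under 0.05 was reached by 3 in each of the 3 lists (24.1% of all genes). DESeq2 called 1, a T and NK cell marker (8.4% of its genes).

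By the mean z-score of the 10 genes, the non-member genes most like the set over 12 libraries were Tnfaip8, Mvp, Otulinl, Rasa4 and Adgre1, the last being the macrophage marker F4/80, each with a Pearson r of 0.97. All 5 also followed the set after group means were removed, with r from 0.93 to 0.94.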
